A study of Mus musculus with 6 samples.

Results

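The cholesterol genes of cortical cells were followed through treatment with 10HDA (10-hydroxy-2-decenoic acid), a fatty acid of royal jelly. They are 33 genes, chosen by symbol for their place in making, sensing, taking up or exporting cholesterol, out of the 43346 rows of a gene count table. The 6 libraries were made from mouse fetal cortex (gestational day 15.5), whose cells had been put in primary culture on coated glass coverslips. Cultures 1, 3 and 4 each gave 1 library treated with vehicle (DMSO) and 1 treated with 1 mM 10HDA. The labels give both treatments the strain Cyp19-EGFP and the genotype SRY+, so the controls carry both too, whereas C57BL/6 embryos are named in the methods of the RNA sequencing. The length of the treatment is not given in the sources used here.

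Cholesterol does not cross from the blood into the brain in useful amounts, so neural cells make their own. Acetyl units are joined and reduced to mevalonate, converted to isoprenoids, condensed to squalene, closed into lanosterol and trimmed to cholesterol. The factor SREBP2 (gene Srebf2) is held in the endoplasmic reticulum by INSIG proteins when sterols are plentiful, and is carried out by SCAP and switches on synthesis and uptake genes when they are scarce. When oxidised sterols build up, the LXR receptors (Nr1h2 and Nr1h3) switch on genes of export, among them Abca1, Abcg1 and Apoe, and also Mylip, a ubiquitin ligase that removes receptors of the low density lipoprotein family. In the brain, astrocytes are the main source of apolipoprotein E, the carrier that hands cholesterol to neurons.

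No cholesterol gene passed an adjusted p of 0.1 in the comparison of the 3 10HDA libraries with the 3 vehicle libraries by edgeR's quasi-likelihood test, which called 0.627% of the 10520 genes tested (66 genes). With the culture entered as a block, which compares the 2 libraries of each culture with each other, 2 of the 32 cholesterol genes tested passed, Apoe and Mylip, both lower with 10HDA. That fit called 8.98% of all genes tested in either direction and 5.08% as lower. At an unadjusted p under 0.05 without the block stood 3 of the 32 (Apoe, Mylip and Pmvk), against 10.1% of all genes tested. A share of 3 in 32 is near that background, as is 2 in 32 near the blocked one. The median log2 fold change was -0.06 for the synthesis genes and -0.03 for the LXR and efflux genes, against -0.01 over all genes tested, and scaling by library size alone turned these 3 medians to 0.02, 0.04 and 0.07. Without the block, p-values rest on the spread between the 3 cultures within a treatment. With it, they rest on how the treatment difference varies between the 3 cultures. The methods of the RNA sequencing do not say whether a culture came from 1 fetus or a pool.

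The filter on low counts (10 CPM or more in at least 3 libraries) let 32 of the 33 cholesterol genes through. CPM here are the counts scaled to a fixed library total after TMM scaling. Nr1h3, which encodes LXR alpha, had 46 counts in all 6 libraries together and from 0.275 to 1.18 CPM, and was not tested. Ebp, a sterol isomerase, passed the filter narrowly, with 10.4, 8.74 and 7.98 CPM in the vehicle libraries of cultures 1, 3 and 4 and 10.5, 10.4 and 6.95 in the 10HDA libraries. The libraries held from 9144736 to 13367194 counts on genes, so that 3 counts stood for 0.224 to 0.328 CPM. Both libraries of culture 1 had a summed level of 4 Y-linked genes of 9.07 and 9.3 CPM, against 97.8 to 136 CPM in the other 4, although all 6 are labelled SRY+. Values of the genes that passed, and of several synthesis genes, are therefore given with and without it. Some other genes in which culture 1 differed from the rest are given by culture.

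The letters upstream of these genes were read from a set of RefSeq starts (GRCm38.p6) that held 27 of the 33. Fdps, Fdft1, Sqle, Stard4, Abcg1 and Abcg4 were missing from that set and were not read. In the 250 bases before the start, CCAAT (either strand), the box bound by NF-Y, stood in 14 of 15 synthesis genes, all but Acat2, and in 6 of the 12 other members, against 37.5% of all 27025 genes with a start in the table. The sterol regulatory element TCACNCCAC (either strand), the kind of site that SREBP2 binds, was found in 1 of the 27 members read, Hmgcs1, and in 1.22% of all genes. The palindrome CACGTG, an E-box, stood in 6 of the 27 and in 6.86% of all genes. These matches are descriptions of letters in a window, and none of the 3 motifs shares bases with another in the stretches shown. Shown 5′ to 3′ on the strand of the gene are the windows of Hmgcs1, which has the highest level, of Mvk, which holds 5 CCAAT boxes, and of Mylip and Apoe, the genes that passed with the block. Capitals mark the sterol regulatory element and the CCAAT boxes, which read ATTGG where they lie on the other strand. They cover chr13:119690101-119690350 (plus strand) for Hmgcs1, chr5:114444019-114444268 (plus) for Mvk, chr13:45389492-45389741 (plus) for Mylip and chr7:19699189-19699438 (minus) for Apoe.
Hmgcs1: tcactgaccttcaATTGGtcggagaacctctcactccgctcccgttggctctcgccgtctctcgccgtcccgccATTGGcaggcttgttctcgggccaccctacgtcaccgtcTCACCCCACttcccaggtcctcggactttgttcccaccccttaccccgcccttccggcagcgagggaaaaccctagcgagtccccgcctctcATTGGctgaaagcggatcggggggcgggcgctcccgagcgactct
Mvk: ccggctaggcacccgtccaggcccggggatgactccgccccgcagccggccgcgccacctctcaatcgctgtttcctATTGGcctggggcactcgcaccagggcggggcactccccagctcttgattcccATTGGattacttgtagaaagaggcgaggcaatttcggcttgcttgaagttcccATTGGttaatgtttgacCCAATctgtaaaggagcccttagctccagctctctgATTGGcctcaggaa
Mylip: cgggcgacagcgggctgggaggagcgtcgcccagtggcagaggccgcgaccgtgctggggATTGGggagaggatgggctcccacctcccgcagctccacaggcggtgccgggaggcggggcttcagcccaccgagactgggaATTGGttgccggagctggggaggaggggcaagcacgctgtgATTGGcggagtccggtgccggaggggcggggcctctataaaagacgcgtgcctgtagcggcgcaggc
Apoe: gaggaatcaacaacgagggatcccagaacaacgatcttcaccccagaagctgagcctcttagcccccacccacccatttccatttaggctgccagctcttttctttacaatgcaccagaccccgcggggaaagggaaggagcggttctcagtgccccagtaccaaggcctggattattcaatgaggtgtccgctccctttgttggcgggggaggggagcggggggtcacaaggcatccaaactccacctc

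Before the changes, the levels. Per kilobase of the gene model, which allows genes to be compared, Hmgcs1 stood first in the vehicle cultures with 617 ± 7.25 CPM per kb (SD, n = 3). It encodes the cytosolic HMG-CoA synthase at the entry to the mevalonate pathway. Apoe was next with 250.1 ± 40.6, followed by Fdps, the farnesyl diphosphate synthase, with 122 ± 16.4, Srebf2 with 91.6 ± 1.21, and Cyp51, the lanosterol demethylase, with 81.3 ± 3.34. The vehicle libraries of these 5 did not overlap from one gene to the next. This order holds for the gene lengths deposited with the counts. GENCODE M21 has longer models for some genes, with 4208 in place of 1241 bases for Fdps and 4594 in place of 3233 for Hmgcs1. Further down, neighbours mostly ran together, and over the whole order the vehicle libraries overlapped in 20 of the 31 neighbouring pairs. Lowest among the tested genes were Ebp with 3.91 ± 0.523, Abcg1 with 3.46 ± 0.476 and Soat1 with 3.31 ± 0.378 CPM per kb, 3 genes that cannot be told apart at this spread. The exporters Abcg4 (13.9 ± 0.548) and Abca1 (8.6 ± 1.63), the receptor gene Nr1h2 (11.8 ± 1.24) and Mylip (5.83 ± 0.141) also lay in the lower part of the order.

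**Figure D1:**
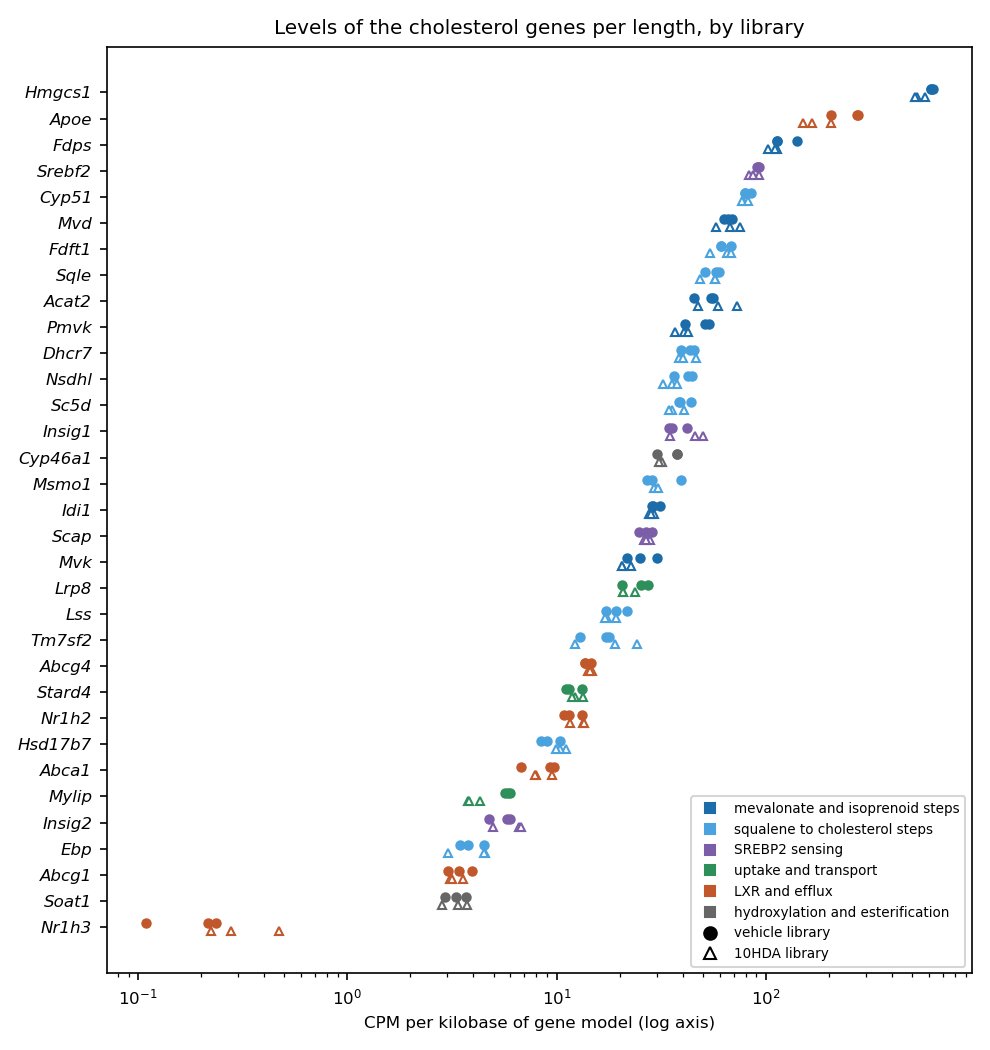
CPM per kilobase of gene model on a log axis for the 33 cholesterol genes, ordered by the vehicle mean and coloured by role, with filled circles for the 3 vehicle libraries and open triangles for the 3 10HDA libraries. Hmgcs1 lies at 617 CPM per kb in vehicle and 539.8 with 10HDA, and Nr1h3, at the bottom, was under the filter.

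Among the 7 genes from acetyl-CoA to farnesyl diphosphate, none passed the test with or without the block, and 5 had a lower and 2 a higher fitted level with 10HDA. Their median log2 fold change was -0.17, and -0.10 under scaling by library size alone. By culture it was -0.21 in culture 1, -0.02 in culture 3 and -0.12 in culture 4. Hmgcs1 had 1976, 2021 and 1990 CPM in the vehicle libraries of cultures 1, 3 and 4 and 1706, 1665 and 1865 CPM in the 10HDA libraries. All 3 10HDA libraries lay below all 3 vehicle libraries, but the log2 fold change of -0.19 (SE 0.11) did not pass (adjusted p = 0.555 by edgeR, 0.251 with the block). Its 95% interval ran from a loss of 25.8% to a gain of 3.1% (-25.8% to 3.1%). For Fdps, which makes the farnesyl diphosphate that both sterols and prenylated proteins use, the vehicle libraries had 175, 139.4 and 140.5 CPM and the 10HDA libraries 139.3, 137 and 127 CPM. Here, too, the treatments did not overlap, by a margin of a fraction of a CPM, with a log2 fold change of -0.17 (SE 0.11, adjusted p = 0.609). Hmgcs1, Fdps and Mylip were the 3 of 32 cholesterol genes whose libraries did not overlap between treatments, all lower with 10HDA, against 13.4% of all genes tested.

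The lowest fold change of the early steps was that of Pmvk, the phosphomevalonate kinase, with 81.2, 62.1 and 77.0 CPM in vehicle and 61.1, 55.9 and 64.0 CPM with 10HDA. It was lower in each culture, while the treatments overlapped, since the vehicle library of culture 3 lay under the highest 10HDA library. The log2 fold change was -0.28 (SE 0.12) with an adjusted p of 0.462 by edgeR, and 0.113 with the block. Mvk, the mevalonate kinase that acts just before it, had -0.26 (SE 0.13), with from 57.9 to 80.2 CPM in vehicle and from 54.8 to 60.6 CPM with 10HDA, and was higher with 10HDA in culture 3. At the other end stood Acat2, the cytosolic acetoacetyl-CoA thiolase, with 139, 142 and 116 CPM in vehicle and 149, 185 and 120 CPM with 10HDA. It was higher in each culture but by unequal amounts, with a log2 fold change of 0.20 (SE 0.15, adjusted p = 0.652). Acat2 shares sequence with a neighbouring copy, Acat3, which had 4853 counts, so that reads could have been divided between them. Mvd, the decarboxylase, had 0.02 (SE 0.11) and Idi1, the isopentenyl diphosphate isomerase, -0.06 (SE 0.09), each with its treatments overlapping.

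For the 11 genes from squalene to cholesterol the median log2 fold change was -0.04, with 3 higher and 8 lower (0.03, with 7 higher and 4 lower, under scaling by library size alone), and none passed in either fit. Nsdhl, a sterol dehydrogenase encoded on the X chromosome, had the lowest value, -0.23 (SE 0.11, adjusted p = 0.517). Its levels were 126, 104 and 121 CPM in vehicle and 91.4, 101 and 107 CPM with 10HDA. Each culture was lower, but the 10HDA library of culture 4 lay above the vehicle library of culture 3. Tm7sf2, a sterol reductase, had the highest value, 0.22 (SE 0.21, adjusted p = 0.728), with 61.6, 60.0 and 45.0 CPM in vehicle and 66.1, 84.1 and 42.6 CPM with 10HDA. The spread of the 10HDA libraries of Tm7sf2 exceeded the difference between treatments. In GENCODE M21 its exons share 12.1% of their bases with Vps51 on the same strand. The counted model was shorter, 3484 against 4403 bases, and whether the shared bases were counted is not known.

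Large steps of the pathway showed small differences. Sqle, the squalene epoxidase that limits the late pathway, averaged 311 ± 23.3 CPM in vehicle and 300.3 ± 27.4 CPM with 10HDA (SD, n = 3), a log2 fold change of -0.05 whose interval ran from -0.28 to 0.18. Cyp51 averaged 348 ± 14.3 and 338 ± 12.3 CPM, or -0.04, and Dhcr7, the reductase of the last step, 161 ± 11.5 and 157 ± 15.3 CPM, or -0.04. Fdft1, the squalene synthase, had a value of -0.02. In GENCODE M21 it shares 18.3% of its exon bases with Ctsb on the opposite strand, and the strand setting of the counting is not stated. Its counted model was shorter, 2860 against 4227 bases, so the shared bases may not have been counted. Lss, the cyclase that forms lanosterol, had -0.11, Msmo1, a methylsterol oxidase, -0.09, and Sc5d, a desaturase, -0.14. Hsd17b7, a ketosteroid reductase, had 0.17 and Ebp 0.06. In cultures 1, 3 and 4, Hsd17b7 differed by 0.39, 0.01 and 0.13 on the log2 scale, and Lss by 0.02, -0.18 and -0.16. For each of these 9 genes the treatments overlapped and both adjusted p-values missed the threshold, which does not show that their levels were equal.

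Counted over the whole route, 13 of the 18 synthesis genes had a lower fitted level and 5 a higher one, which became 8 and 10 when libraries were scaled by their size alone. The culture medians were -0.11, -0.01 and -0.11 for cultures 1, 3 and 4. In all, 9 of the 32 cholesterol genes were lower with 10HDA in each of the 3 cultures and 5 were higher in each, together 14, against 39.5% of all genes tested. TMM-scaled CPM do not add to a fixed total. Over all genes tested they summed to 1005000 to 1064000 CPM in vehicle and 953500 to 1004000 CPM with 10HDA, lower with 10HDA as well. Summed over the 18 genes, the vehicle libraries held from 4265 to 4489 CPM and the 10HDA libraries from 3987 to 4062 CPM. Hmgcs1 alone made up from 41% to 46.7% of that sum in each library. Without Hmgcs1 the sums were 2513, 2327 and 2275 CPM in the vehicle libraries of cultures 1, 3 and 4 and 2281, 2397 and 2166 CPM in the 10HDA libraries, so that the treatments overlapped and culture 3 was higher with 10HDA.

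Several synthesis values leaned on culture 1. With both of its libraries left out (no block), the log2 fold change of Mvk was -0.09 in place of -0.26, that of Fdps -0.06 in place of -0.17 and that of Nsdhl -0.09 in place of -0.23. Msmo1 turned from -0.09 to 0.12, Dhcr7 from -0.04 to 0.08, Cyp51 from -0.04 to 0.02 and Fdft1 from -0.02 to 0.03, none past the threshold. Hmgcs1 had -0.17 without culture 1 and Pmvk -0.20, and the median of the tested synthesis genes was -0.03. Ebp no longer passed the filter without these libraries.

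**Figure D2:**
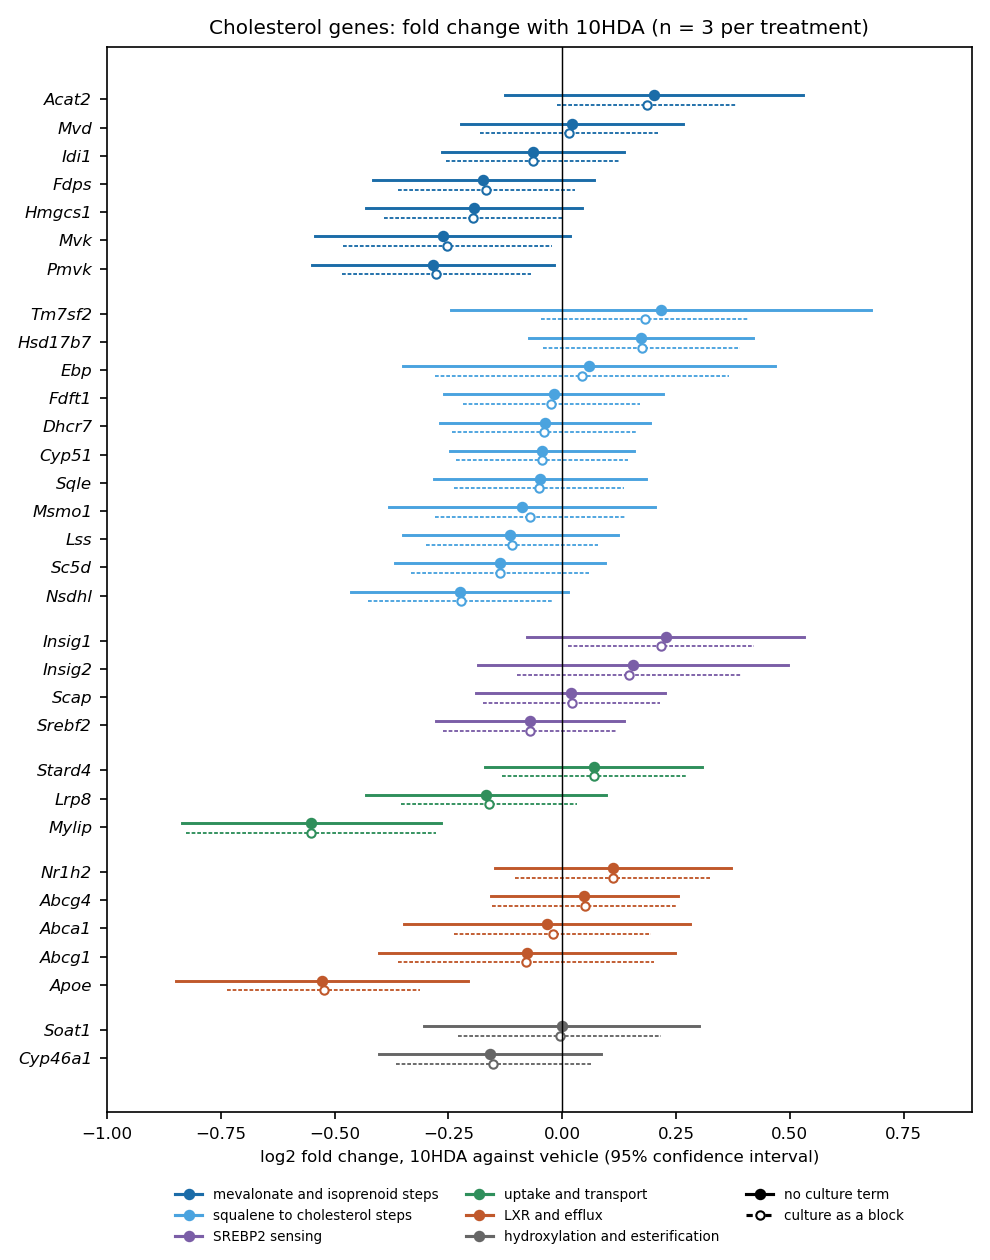
Log2 fold change of the 32 tested cholesterol genes, 10HDA against vehicle, with 95% confidence intervals, grouped and coloured by role; filled circles are the fit without a culture term and open circles the fit with culture as a block (n = 3 per treatment). Mylip (-0.55) and Apoe (-0.53) lie apart from the rest, which range from -0.28 to 0.23.

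The machinery that senses sterols did not pass the test at any of its 4 genes. Insig1, itself a target of SREBP2 and the retention factor of the SCAP complex, had the highest fold change of the 32 tested, 0.23 (SE 0.14, adjusted p = 0.587). It had 93.0, 113 and 96.1 CPM in vehicle and 124, 136 and 93.7 CPM with 10HDA. Cultures 1 and 3 were higher with 10HDA and culture 4 was not, and with the block the adjusted p was 0.219. Srebf2 lay at the other end of the group with 464, 453 and 454.5 CPM in vehicle and 413.5, 460.1 and 432.5 CPM with 10HDA, a log2 fold change of -0.07 (SE 0.09). Its interval, -0.28 to 0.14, corresponds to -17.4% to 9.87%. Insig2, the second INSIG gene, had 0.16 (SE 0.15) and was higher in each culture, and Scap had 0.02 (SE 0.09).

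Of the uptake and transport genes, Mylip (also IDOL, chr13:45389742-45412022 on the plus strand in GENCODE M21, GRCm38) separated the treatments. Its level was 17.4, 17.9 and 18.3 CPM in the vehicle libraries of cultures 1, 3 and 4 and 11.6, 13.2 and 11.7 CPM in the 10HDA libraries. Each 10HDA library lay below each vehicle library, and the difference between treatments was several times the spread within them (17.8 ± 0.433 against 12.2 ± 0.911 CPM, SD, n = 3). The log2 fold change was -0.55 (SE 0.13), a difference of -31.8% with an interval of -44.0% to -16.9%. It missed the threshold over all genes without the block (adjusted p = 0.147 by edgeR) and fell with the block (adjusted p = 0.0126). With culture 1 left out, the blocked fit gave -0.51 (adjusted p = 0.046), and with culture 4 left out it gave -0.50 and no longer passed (adjusted p = 0.138).

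The 2 other transport genes stayed within their spread. Lrp8, a lipoprotein and reelin receptor of neurons that MYLIP is known to target, had a log2 fold change of -0.17 (SE 0.12, adjusted p = 0.645), with from 216 to 288 CPM in vehicle and from 218 to 249 CPM with 10HDA. By culture Lrp8 differed by 0.02, -0.28 and -0.21 in cultures 1, 3 and 4. Without the vehicle library of culture 1 its fold change was -0.26 (adjusted p = 0.264 by edgeR). Stard4, which carries sterol between membranes, had 61.7, 73.9 and 63.9 CPM in vehicle and 68.4, 74.8 and 66.2 CPM with 10HDA. It was higher in each culture by small amounts, with a log2 fold change of 0.07 (SE 0.11) and overlapping treatments.

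Apoe (chr7:19696109-19699188, minus strand) had the other difference that passed with the block. Its levels were 538, 402 and 545 CPM in the vehicle libraries of cultures 1, 3 and 4 and 298, 329 and 404 CPM in the 10HDA libraries. Every culture was lower with 10HDA, by 0.85, 0.29 and 0.43 on the log2 scale, and the treatments met at one point, where the vehicle library of culture 3 lay just under the 10HDA library of culture 4. The fitted log2 fold change was -0.53 (SE 0.15), or -30.6% with an interval of -44.4% to -13.3%. Without the block it did not pass (adjusted p = 0.246 by edgeR), and with it Apoe fell (adjusted p = 0.00223). Leaving out culture 1, which had the greatest difference, the blocked value was -0.34 and still passed (adjusted p = 0.0289).

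**Figure D3:**
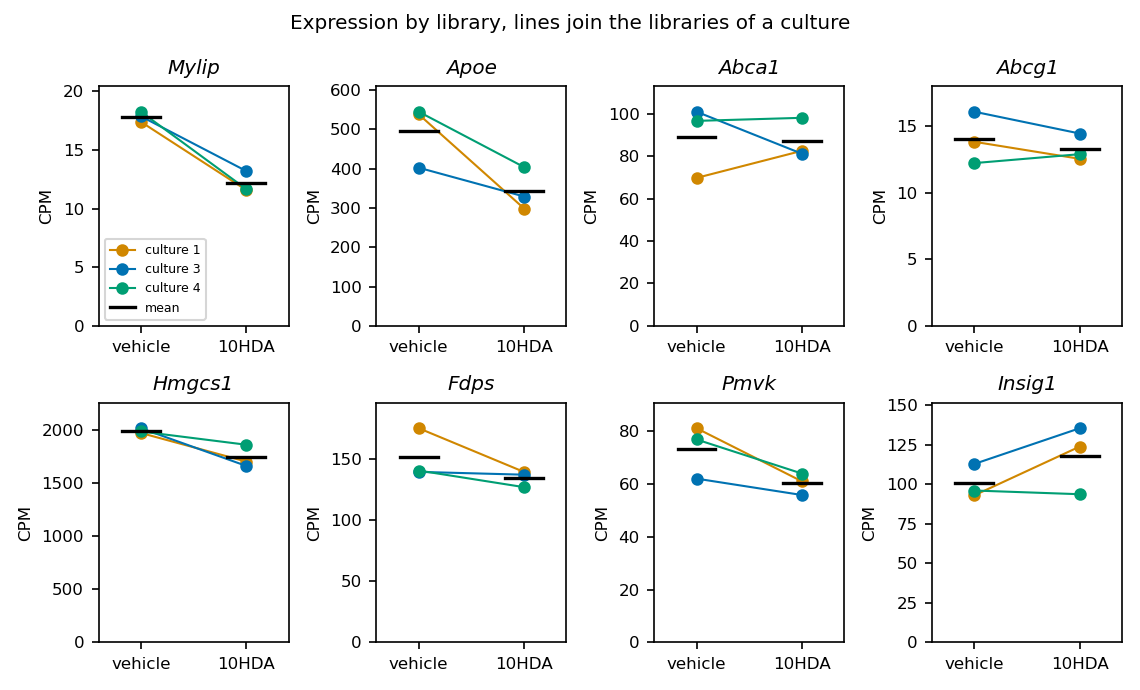
CPM of 8 cholesterol genes in each library, from 0, with a line joining the vehicle and the 10HDA library of each culture and a black bar at the mean of 3 libraries. All 3 lines run downward for Mylip (17.8 to 12.2 CPM on average) and Apoe (495 to 344 CPM), whereas Abca1 and Insig1 have lines in both directions.

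The other exporters that LXR is described to switch on gave values near 0. Abca1, the transporter that loads lipid onto apolipoproteins, had 69.8, 101 and 96.7 CPM in vehicle and 82.6, 81.2 and 98.1 CPM with 10HDA. Culture 1 was higher, culture 3 lower and culture 4 nearly level (0.24, -0.31 and 0.02 on the log2 scale). The log2 fold change of -0.03 (SE 0.14) had an interval of -21.4% to 21.5%. Without the vehicle library of culture 1 the fold change of Abca1 was -0.16 (adjusted p = 0.471 by edgeR). Abcg1, which passes cholesterol to lipoprotein particles, had 13.8, 16.1 and 12.2 CPM in vehicle and 12.5, 14.5 and 12.9 CPM with 10HDA, or -0.08 (SE 0.15, adjusted p = 0.869). For these 2 exporters the intervals still allow a loss of more than 20%. The 4 genes named at the start as switched on by LXR, Abca1, Abcg1, Apoe and Mylip, had negative fitted values. Their median of -0.30 lay between Abcg1 (-0.08) and Apoe (-0.53). Under scaling by library size alone, however, Abca1 had 0.04 and Abcg1 -0.0026. Abca1 and Abcg1 differed in direction between cultures, and a difference in response between these genes was not tested.

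Nr1h2, the gene of LXR beta, had 44.5, 38.4 and 36.5 CPM in vehicle and 44.8, 45.2 and 38.8 CPM with 10HDA. Each culture was higher with 10HDA, by a log2 fold change of 0.11 (SE 0.12, adjusted p = 0.75), and the treatments overlapped. Abcg4, a sterol transporter of neurons, had one of the tightest intervals of the set, -10.3% to 19.3%, around 0.05. Nr1h3 averaged 0.47 ± 0.171 CPM in vehicle and 0.814 ± 0.324 CPM with 10HDA, too few counts for a comparison.

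Finally, Cyp46a1, the neuronal enzyme that hydroxylates cholesterol so that it can leave the brain, had 80.0, 64.1 and 79.2 CPM in vehicle and 66.7, 67.7 and 65.5 CPM with 10HDA. Cultures 1 and 4 were lower and culture 3 was not, with a log2 fold change of -0.16 (SE 0.11, adjusted p = 0.64). Soat1, which stores cholesterol as esters, had 32.4, 36.1 and 28.7 CPM in vehicle and 32.99, 36.28 and 27.7 CPM with 10HDA. Both treatments of a culture had nearly the same level of Soat1, and its log2 fold change was 0.00 (SE 0.14).

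The marker lists of cell types were read beside these values, since Apoe is foremost an astrocyte gene. In bulk RNA, fewer cells of a type and less RNA per cell cannot be told apart. For the counts below, 0.627% of all genes tested passed without the block and 8.98% with it. The same direction in each culture was seen in 39.5% of them. Of 12 astrocyte markers, 10 were tested, 8 of them with a lower fitted level, and 4 fell without the block (Gfap, Aldh1l1, Aldoc and Slco1c1), with Aqp4 passing as well with it. The median over the 10 was -0.44, and the summed level of the list ran from 1267 to 1563 CPM in vehicle and from 991 to 1218 CPM with 10HDA. Beside such sums stand those of all genes tested, 1005000 to 1064000 CPM in vehicle and 953500 to 1004000 CPM with 10HDA. Of the 12 neuron markers, 11 had a lower fitted level with a median of -0.24, none fell without the block, 5 fell with it (Rbfox3, Snap25, Syt1, Elavl4 and Gap43), and their sum ran from 9499 to 10040 CPM in vehicle and from 7933 to 8950 CPM with 10HDA. Some markers of other cells differed as well. Of 8 tested oligodendrocyte lineage markers, Cspg4 fell without the block (-0.92, adjusted p = 0.0428 by edgeR), and Sox10 and Pdgfra, with -1.44 and -1.21, fell with it alone. That list had 3 higher and 5 lower fitted levels, with a median of -0.17, and 1 marker was higher and 4 were lower in every culture. It summed to 362 to 452 CPM in vehicle and 278 to 391 CPM with 10HDA. Of the 8 tested radial glia markers (median -0.11), 2 had a higher and 6 a lower fitted level. With the block, Fabp7, Ptprz1 and Tnc fell and Vim rose. The sum of that list ran from 1630 to 1808 CPM in vehicle and from 1416 to 1530 CPM with 10HDA. Pdgfrb, the 1 endothelial and pericyte marker above the filter, fell (-1.07, adjusted p = 0.0428). The list sum of 17.95 to 19.54 CPM in vehicle and 8.51 to 11.4 CPM with 10HDA was mostly Pdgfrb itself, with means of 15.7 and 7.38 CPM. No meningeal fibroblast marker was tested, and that list summed to 11.1 to 14.3 CPM in vehicle and 6.78 to 8.51 CPM with 10HDA. Most of that sum was Dcn, with means of 9.18 and 4.49 CPM. Every other marker of the list averaged under 1.2 CPM in both treatments. The sum of 10 microglia markers lay between 0.959 and 1.47 CPM in all 6 libraries, with Tmem119 at 0 in each, so that the defining markers of microglia, which also make apolipoprotein E, were at or near 0. The part of these lists in the values of Apoe and Mylip was not tested.

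Calls among genes next to the pathway are given beside the share of all genes tested, 0.627% without the block and 8.98% with it. Of 18 tested genes of fatty acid synthesis and desaturation, which SREBP1 and LXR are known to drive, 14 had a lower and 4 a higher fitted level, with a median of -0.13. Of these 18, 1 passed without the block, and 3 passed as lower and 1 as higher with it. The list as a whole was not tested. Scd1, the stearoyl-CoA desaturase, fell from 356, 382 and 371 CPM in vehicle to 234, 245 and 264 CPM with 10HDA, a log2 fold change of -0.58 (SE 0.09, adjusted p = 0.0428 by edgeR). Fads2, a desaturase of polyunsaturated fatty acids, had -0.50 (SE 0.12) and fell with the block alone (adjusted p = 0.00223, against 0.148 without it). Thrsp, a lipogenic factor, fell with the block (-0.43, adjusted p = 0.0853), and Hacd3, a dehydratase of chain elongation, rose with it (0.30, adjusted p = 0.0552). Of the 10 tested genes among other LXR, efflux and ester genes, 1 passed, the apolipoprotein J gene Clu, which fell by 0.66 on the log2 scale (SE 0.11, adjusted p = 0.0428). None of the 10 other regulators of SREBP processing, the 13 genes of isoprenoid branches (median 0.05) or the 16 tested genes of uptake and intracellular transport (0.03) passed in either fit. The 10 regulators had a median of 0.04, 9 of them with a higher fitted level.

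**Figure D4:**
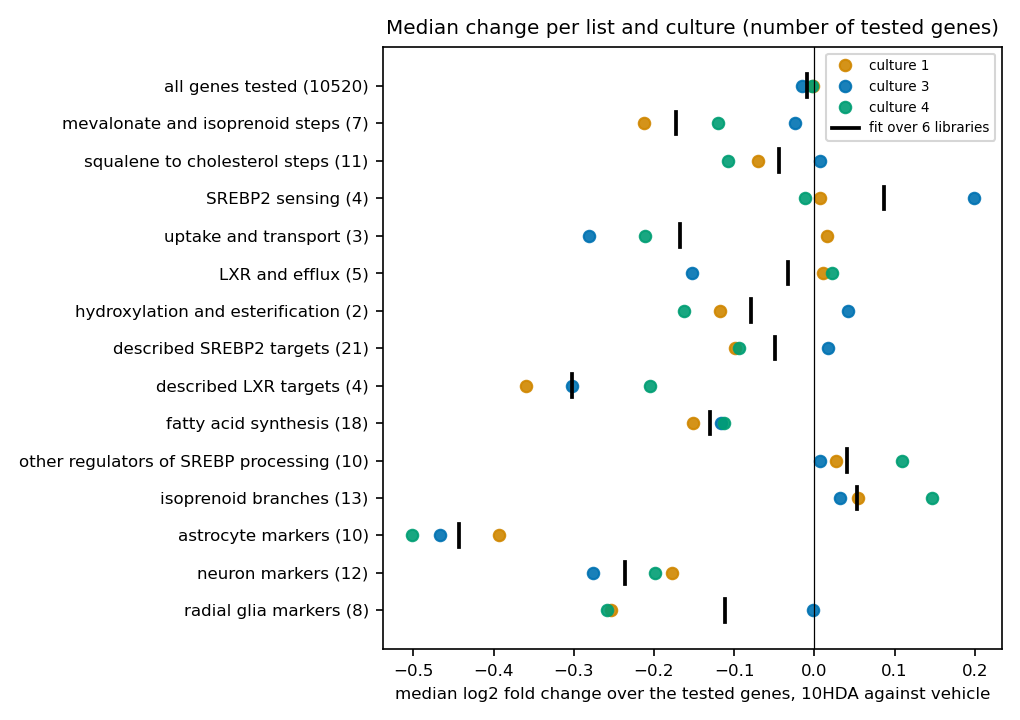
Median log2 fold change over the tested genes of each list, 10HDA against vehicle, with a black bar for the fit over 6 libraries and a point for each culture. The median of all genes tested is -0.01, that of the 7 mevalonate and isoprenoid genes -0.17, and that of the 10 astrocyte markers -0.44.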

How the data were processed

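RNA of 6 libraries was sequenced with 50-base single-end reads. Per the methods, reads were not trimmed, the authors used Subjunc (Subread 1.4.4, which the submitters' processing notes list) for alignment to mm10, and featureCounts gave reads per Gencode gene. The deposited values are raw counts, with no filter, and a gene length column. Symbols came from GENCODE M21 (98.0% of identifiers matched). Genes reaching 10 CPM in 3 or more libraries were scaled by TMM and fitted in edgeR 4.0.16 (glmQLFit, glmQLFTest, R 4.3.3), with Benjamini-Hochberg adjustment over all genes tested and a threshold of 0.1. Standard errors are the fold change over the square root of F. The labels give each culture 1 library per treatment, so the culture numbers pair the libraries. Deviations from the treatment mean correlated across genes at 0.37, 0.24 and 0.62 for paired libraries, against -0.45 to 0.18 for others. Such deviations cancel out within a treatment, which tends to lower the unpaired values where the paired ones are positive. The contrast is thus partly built in. DESeq2 1.42.0, limma-voom 3.58.1, other scalings and filters, and each library or culture left out were alternatives. All 33 members are named; values in each library are given for those past the threshold in either fit and for the highest and lowest fold change of each role, and further for Hmgcs1, Fdps, Abca1, Abcg1 and Ebp, chosen after their values were seen. Genes of other pathway lists and of the marker lists are named where they passed in either fit, besides Dcn and Tmem119, named for their levels. The members and lists were chosen with earlier results of these data known. Limits from 3 counts cover counting error only. Scripts were tested on simulated data.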

Additional observations from a re-analysis of the deposited data

How the results depend on the processing

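Apoe and Mylip were lower with 10HDA in all 23 alternatives run, and passed the threshold in 10 and 6 of them. Without the block, Apoe passed with no filter (adjusted p = 0.00111), in DESeq2 (0.0376) and without the 10HDA library of culture 4 (0.0519 by edgeR), and Mylip with no filter (0.0663). With the block in DESeq2, Mylip did not pass (0.151). Without the filter on low counts 636 genes and 2 members passed, with DESeq2 170 and 1, with the replicate block 945 and 2, with the block and scaling by library size alone 1265 and 4 (Acat2 and Insig1 the further members), with the block in DESeq2 389 and 1, and with the block in limma-voom 977 and 2. The last 2 settings were chosen after seeing the data. At a threshold of 0.05, 43 genes passed. Leaving out single libraries or cultures without the block gave from 0 to 355 genes and from 0 to 1 members (0 genes without the 10HDA library of culture 1 or without culture 3, 2 without culture 1 or the vehicle library of culture 3, 355 without the 10HDA library of culture 4). With the block, 869 genes and 2 members passed without culture 1, 1089 and 5 without culture 3 (Mvk, Pmvk and Nsdhl the further members) and 358 and 1 without culture 4. The median of the synthesis genes moved to 0.0191 with scaling by library size alone, and to 0.0186 with the block and that scaling. Of the 66 calls, 31.8% were higher, against 46.7% with library size alone. With TMM scaling in edgeR on all 6 libraries, the block changed the call of no member but Apoe and Mylip. The cause of these shifts was not tested. Depth limits Nr1h3, which was too low to test.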
